A study of Mus musculus with 11 samples.

Results

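Loss of a Csf2 copy was examined as a single factor in sorted mouse microglia, by setting the libraries from mice with 1 Csf2 copy against those with 2 copies and fitting the Csf1r genotype as a covariate. The first arm held 5 libraries, 3 from Csf2+/- mice (Csf2_het) and 2 from mice heterozygous for both genes (Dhet, genotype Csf1r+/-; Csf2+/-). The second held 6, namely 3 wild type (WT) and 3 Csf1r+/- (Csf1r_het). Together these are all 11 libraries of the series, so each arm mixes both Csf1r genotypes, and of the 14739 genes in the deposited table the 13223 whose normalized counts averaged 10 or more were tested. RNA came from Tmem119+ cells sorted out of the cerebrum of C57BL/6 mice, and bulk RNA sequencing was used. The mice were 21 months old, except for Csf1r_het replicate 1 at 20 months and Csf1r_het replicate 2 and Dhet replicate 2 at 24 months. The series addresses how signalling by the CSF-1 and CSF-2 receptors is balanced in microglia. The labels name no Cre driver for either allele, and no group lacks a gene altogether. The labels do not say whether each library came from 1 mouse, and the p-values measure only the spread between libraries.

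The product of Csf2 is the cytokine GM-CSF, also called CSF-2, which acts on myeloid cells through a receptor made of the ligand-binding chain Csf2ra and the signalling chain Csf2rb. The receptor activates JAK2 and the transcription factor STAT5 and drives growth and activation of monocytes, macrophages and granulocytes. Microglia depend on Csf1r, which binds CSF-1 and IL-34, and circulating monocytes occur as a classical Ly6C-high form and a patrolling Ly6C-low form that matures from it.

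The deletion in Csf2 itself was not checked from expression, since Csf2 was not analysed here. Depth was 33459297 to 53081638 reads in the arm with 1 copy and 21037819 to 45786206 in the arm with 2 copies. Haemoglobin genes took 18.9% to 40.2% and 16.1% to 58.8% of the counts. Tmem119 itself, the sorting marker, was at 18805 to 31939 normalized counts with 1 copy and at 5432 to 19084 with 2, while transcripts of neutrophils and monocytes were also present (S100a8 reached 248160 and 285180). Dhet replicate 2 had a Y-linked transcript, Ddx3y, at 717 normalized counts and Xist at 4.02, against at most 16.3 and at least 3011 in the other libraries. Csf1r_het replicate 2 held the highest haemoglobin share and the most genes at 0 (15.6%), and WT replicate 2 the highest summed ribosomal protein and interferon transcripts. Without both of them 9 genes were called in the comparison below, against 18.

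Over both Csf1r genotypes, 14 genes fell (0.106% of the genes tested) and 4 rose (0.0303%) at a limma adjusted p under 0.05, which is 18 in all (0.136%). At an unadjusted p under 0.05 there were 1133 (8.57%). Those that fell with the lowest p-values were the IgG receptor Fcgr4, the microtubule gene Tppp3 and Ms4a4a. The 14 also held the signal-regulatory proteins Sirpb1a and Sirpb1c, Cd300e, the α4 integrin chain Itga4, and Treml4 and Eno3, which are in the list of monocyte markers. Their log2 differences ran from -1.71 to -3.05. The 3 largest rises belonged to pseudogenes, Rps3a2, Rps3a3 and Gm28438, that are near copies of other genes and for which quantification and genotype cannot be told apart. All 18 differed in the same direction with 2 and with 1 Csf1r copy, and in 14 of them the arms did not overlap. Over all genes 43.5% had the same sign on both. Calling by the pooled difference favours equal signs and separated arms, so neither count is independent evidence. Non-overlap occurred in 65 of all genes tested upward (0.492%) and in 107 downward (0.809%).

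**Figure D1:**
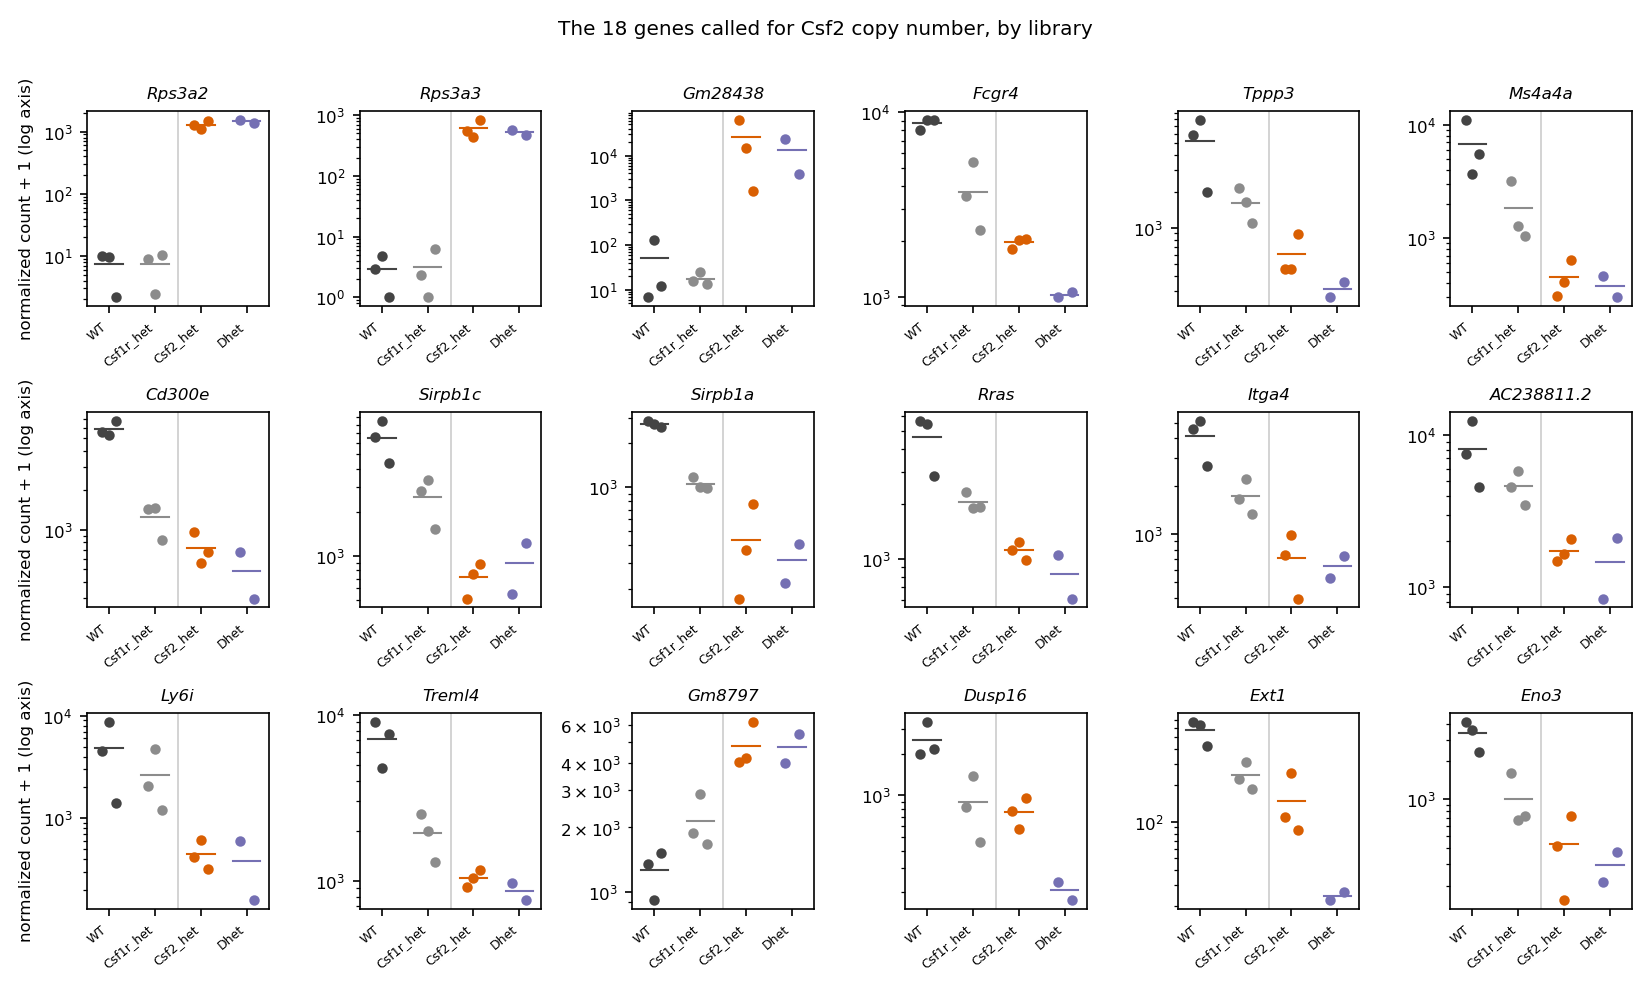
Normalized count plus 1, on a log axis, of each of the 18 genes called for Csf2 copy number, in the 11 libraries (points) of the 4 groups, with group means as bars; the grey line parts 2 Csf2 copies (left) from 1 (right). The 14 lower genes step down from WT to Csf1r_het and again to the groups with 1 Csf2 copy, and Rps3a2, Rps3a3 and Gm28438 are near 0 in 6 libraries and high in 5.

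Fcgr4 (ENSMUSG00000059089.4, chromosome 1, 171018920 to 171029761, forward strand), which encodes a receptor for the Fc part of IgG, had the lowest p-value among the genes that fell. It stood at 7994, 9067 and 9039 normalized counts in WT, 3507, 5358 and 2287 in Csf1r_het, 1809.7, 2042 and 2056 in Csf2_het and 990.4 and 1061 in Dhet. Every library with 1 Csf2 copy lay below every library with 2, and within the latter the 3 Csf1r_het libraries lay below the 3 WT libraries. The mean was 1592 ± 527 (SD, n = 5) against 6209 ± 2925 (SD, n = 6), a log2 difference of -1.98 (SE 0.24, limma adjusted p = 0.00347) that was -2.14 with 2 Csf1r copies and -1.77 with 1. The other Fc receptor genes tested did not pass, among them Fcgr1 (-0.10), Fcgr2b (-0.03) and Fcgr3 (0.32).

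Ms4a4a, a tetraspan membrane protein of macrophages and monocytes (ENSMUSG00000101389.1, chromosome 19, 11375523 to 11392790), showed the largest fall. Its values were 10948, 3663 and 5471 in WT, 3155, 1262 and 1049.7 in Csf1r_het, 308, 407 and 642 in Csf2_het and 461.8 and 298 in Dhet. The arms did not overlap, and the 5 libraries with 1 copy spanned a narrower range than either other group. The log2 difference was -3.05 (SE 0.43, limma adjusted p = 0.0108). Of the 11 Ms4a genes tested 10 had a negative difference, with a median of -1.35 against 0.03 for all genes, and Ms4a4a was the 1 that passed. Its neighbours Ms4a4c (-1.61, limma adjusted p = 0.0649) and Ms4a6c (-1.56, limma adjusted p = 0.107) also did not overlap between the arms.

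Tppp3, which binds and bundles microtubules (ENSMUSG00000014846.12, chromosome 8, 105467493 to 105471526), had 5887, 7793 and 1987 normalized counts in WT and 2133, 1629.9 and 1098 in Csf1r_het. It had 459, 458 and 895 in Csf2_het and 265 and 354 in Dhet, all below every library with 2 copies (log2 -2.69, SE 0.37, limma adjusted p = 0.0101). Fcgr4, Tppp3 and Ms4a4a were the 3 lower genes that kept their call whichever 1 of the 11 libraries was left out.

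Paired receptors formed the next group. Sirpb1a and Sirpb1c, activating members of the SIRP family both on chromosome 3, fell by 2.42 and 2.45 on the log2 scale (SE 0.38 and 0.37, limma adjusted p = 0.0216 and 0.02). Sirpb1a ran from 170.02 to 760.3 with 1 copy and from 978 to 2833 with 2, without overlap. Sirpb1c ran from 509 to 1226 and from 1535 to 8466, also without overlap. As the SIRP-beta genes resemble each other, the split of reads between them is uncertain. Cd300e, an activating receptor of the CD300 family (ENSMUSG00000048498.7, chromosome 11, 115051917 to 115062177), was at 5557, 5254 and 6740.3 in WT, 1444, 1467 and 829.6 in Csf1r_het, 950.2, 557 and 674 in Csf2_het and 672 and 296 in Dhet. Here Csf1r_het replicate 3 lay below Csf2_het replicate 1, so the arms overlapped, and the difference was -2.32 (SE 0.35, limma adjusted p = 0.02). Treml4, a TREM-like receptor of patrolling monocytes, fell by 2.02 (SE 0.33, limma adjusted p = 0.0276), from 1300.2 to 9005 with 2 copies to 766 to 1164 with 1. Of the 26 Fc and paired inhibitory receptor genes tested, Fcgr4 and Sirpb1a passed, both lower, 20 had a negative difference, and the median was -0.64.

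The remaining genes that fell had other roles. Itga4, the integrin chain that binds VCAM-1 on vessels, stood at 4561, 5105 and 2671 in WT, 1653, 2214 and 1329 in Csf1r_het, 741, 983 and 394 in Csf2_het and 527 and 727 in Dhet. It fell by 2.08 (SE 0.33, limma adjusted p = 0.0216) without overlap, and was the 1 of 11 leukocyte integrin genes that passed. The αL chain Itgal had -2.14 (limma adjusted p = 0.121) and αX, Itgax, -1.71 (limma adjusted p = 0.216). Rras, a small GTPase of cell adhesion, fell by 1.71, and Dusp16, a phosphatase of MAP kinases, by 1.83. Eno3, a muscle-type enolase that is also a marker of Ly6C-low monocytes, fell by 2.53. Ext1, an enzyme of heparan sulphate synthesis, fell by 2.61 and was lowest in the Dhet libraries (21.8 and 25.3 against 664, 635 and 419 in WT). The Ly6 family gene Ly6i fell by 3.01, from 1211 to 8632 to 159.8 to 612. The long non-coding RNA AC238811.2 fell by 1.96. Of these, Dusp16, Eno3 and Ext1 overlapped between the arms. The limma adjusted p of these 6 was between 0.0216 and 0.0429. In all 14 genes WT had the highest group mean and Csf1r_het the second, and in 13 of the 14 Dhet had the lowest. Sirpb1c was the exception, with its lowest mean in Csf2_het (713 against 888 in Dhet).

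Because these genes moved together, the DNA before their starts was searched for letters bound by STAT5, which acts below the GM-CSF receptor, and by PU.1, the ETS factor of myeloid cells. RefSeq promoters of 300 bases (build GRCm38.p6, 250 before the start) were found for 10 of the 18 genes, 12 promoters in all. The STAT5 letters TTCNNNGAA, read on both strands, occurred in 4 of the 12 (33.3%) against 8.30% of all 32851 promoters. The PU.1 core AGGAAGT occurred in 4 (33.3%) against 9.35% of all promoters and 9.75% of those of genes tested. The last letters of the STAT5 motif can overlap the PU.1 core, but no match in these 12 promoters did. A match is a run of letters in a window, not a binding site. The 250 bases before the start are shown for 3 of the receptors, 5′ to 3′ on the gene's strand with matches in capitals, to give the arrangement of both motifs, and for Csf2ra as the GM-CSF receptor gene with an entry. In Fcgr4 and Sirpb1a the PU.1 letters lie on the opposite strand. Fcgr4 (chr1:171018676-171018925, plus strand) has the PU.1 letters 24 bases before its start. Cd300e (chr11:115062040-115062289, minus strand) has the STAT5 letters 184 and the PU.1 letters 137 bases before, and Sirpb1a (chr3:15426428-15426677, minus strand) has them 161 and 56 bases before. Cd300e and Sirpb1a were chosen after their matches were seen.
Fcgr4: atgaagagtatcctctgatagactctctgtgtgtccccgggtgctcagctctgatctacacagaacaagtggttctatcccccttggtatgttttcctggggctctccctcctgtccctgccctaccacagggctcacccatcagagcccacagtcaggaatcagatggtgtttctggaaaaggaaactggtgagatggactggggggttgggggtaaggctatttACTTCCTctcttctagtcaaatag
Cd300e: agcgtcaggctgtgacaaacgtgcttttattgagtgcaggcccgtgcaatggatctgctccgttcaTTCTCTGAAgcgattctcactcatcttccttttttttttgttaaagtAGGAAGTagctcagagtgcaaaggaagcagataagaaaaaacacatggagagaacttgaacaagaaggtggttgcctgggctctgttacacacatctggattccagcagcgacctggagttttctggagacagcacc
Sirpb1a: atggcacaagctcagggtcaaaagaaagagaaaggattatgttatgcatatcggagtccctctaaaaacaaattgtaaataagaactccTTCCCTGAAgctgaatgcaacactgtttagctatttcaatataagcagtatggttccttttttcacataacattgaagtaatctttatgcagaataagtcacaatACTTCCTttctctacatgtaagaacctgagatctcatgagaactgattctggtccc
Csf2ra: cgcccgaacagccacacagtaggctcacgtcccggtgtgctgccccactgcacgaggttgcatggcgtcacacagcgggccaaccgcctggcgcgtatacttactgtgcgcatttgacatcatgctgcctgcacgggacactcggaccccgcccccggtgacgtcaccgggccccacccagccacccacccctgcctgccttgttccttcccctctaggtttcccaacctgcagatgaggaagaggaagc
Sirpb1c holds the same 9 STAT5 letters as Sirpb1a, so those 2 promoters are not independent, and the fourth STAT5 match lay in 1 of 3 promoters of Rras. The promoter of Csf2ra (chr19:61228419-61228668, minus strand) held neither run of letters in this window.

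Among the genes that rose were 2 processed pseudogenes, Rps3a2 (ENSMUSG00000062611.4, chromosome 14, 88123017 to 88123808) and, on another chromosome, Rps3a3 (ENSMUSG00000059751.7, chromosome 13, 108670603 to 108671397). Their parent is Rps3a1, which encodes a protein of the small ribosomal subunit. Rps3a2 matches the coding sequence of Rps3a1 in 788 of 792 bases and Rps3a3 in 786 of 795, and both carry the substitutions T216C and T534C (Rps3a1 base, position from the first base of its start codon, pseudogene base). The 61 bases around the first of these are shown with that base in capitals, to make plain how little parts the 3 genes. They lie at chr3:86141347-86141407 (minus strand), chr14:88123563-88123623 (minus) and chr13:108670788-108670848 (plus) of mm10, from the GENCODE vM21 transcripts.
Rps3a1: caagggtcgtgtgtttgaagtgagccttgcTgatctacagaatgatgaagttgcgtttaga
Rps3a2: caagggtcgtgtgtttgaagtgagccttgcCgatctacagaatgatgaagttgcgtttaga
Rps3a3: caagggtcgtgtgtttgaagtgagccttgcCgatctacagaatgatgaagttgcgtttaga
Rps3a2 held 8.99, 8.74 and 1.15 normalized counts in WT and 7.92, 1.48 and 9.48 in Csf1r_het. It held 1292, 1094 and 1463 in Csf2_het and 1535 and 1378 in Dhet, so no library lay between 9.48 and 1094 (log2 difference 7.81, SE 0.63, limma adjusted p = 8.25e-05). Rps3a3 was 0 to 5.26 with 2 copies and 442 to 828 with 1 (7.84, SE 0.77, limma adjusted p = 0.000391). Taken as a share of all 3 genes, the pseudogenes held 30.1% to 37.1% of the counts in the 5 libraries with 1 copy and 0.0167% to 0.0990% in the 6 with 2. Rps3a1 itself was 3144 to 5321 with 1 copy and 6646 to 21991 with 2 (-1.58, limma adjusted p = 0.0723), and the sum of the 3 genes differed by -0.99.

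Gm28438 (ENSMUSG00000101939.1, chromosome 1, 24612775 to 24613119, minus strand) is an unprocessed pseudogene in the nuclear genome with the sequence of mt-Nd3, a mitochondrial gene for a subunit of respiratory complex I. It matches mt-Nd3 in 344 of its 345 bases, the exception being T3C, counted from the first base of mt-Nd3. The first 33 bases are shown for that reason, from chrM:9459-9491 (plus strand) and chr1:24613087-24613119 (minus strand) of mm10, with the differing base in capitals.
mt-Nd3: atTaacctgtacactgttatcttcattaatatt
Gm28438: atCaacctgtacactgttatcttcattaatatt
Gm28438 was at 5.78, 131 and 11.5 normalized counts in WT, 14.5, 23.7 and 12.6 in Csf1r_het, 62327, 14513 and 1608 in Csf2_het and 23295 and 3964 in Dhet (log2 difference 9.04, SE 0.90, limma adjusted p = 0.000391). It took 68.3% to 74.8% of the counts of the pair in 4 of the 5 libraries with 1 copy, 2.33% in Csf2_het replicate 3, and 0.0373% to 0.141% in the 6 libraries with 2. The summed counts of both overlapped widely between the arms, at 5801 to 83349 with 1 copy and 10772 to 93083 with 2. For these pseudogenes the split of reads from their parents is uncertain. The submitters' processing notes list kallisto 0.43.1 and mm10 for all 11 libraries, but not the transcript index. Since the Rps3a share parts the arms without exception, a different quantification of the arms and the Csf2 genotype cannot be told apart for the 3 pseudogenes and Rps3a1. Such a difference would coincide with the arms for every gene, and whether it reached the other called genes or the gene lists was not tested. Of 339 pseudogenes tested, these 3 were the ones whose lowest value with 1 copy was at least 3 times the highest value with 2, and no protein-coding gene reached that gap upward.

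**Figure D2:**
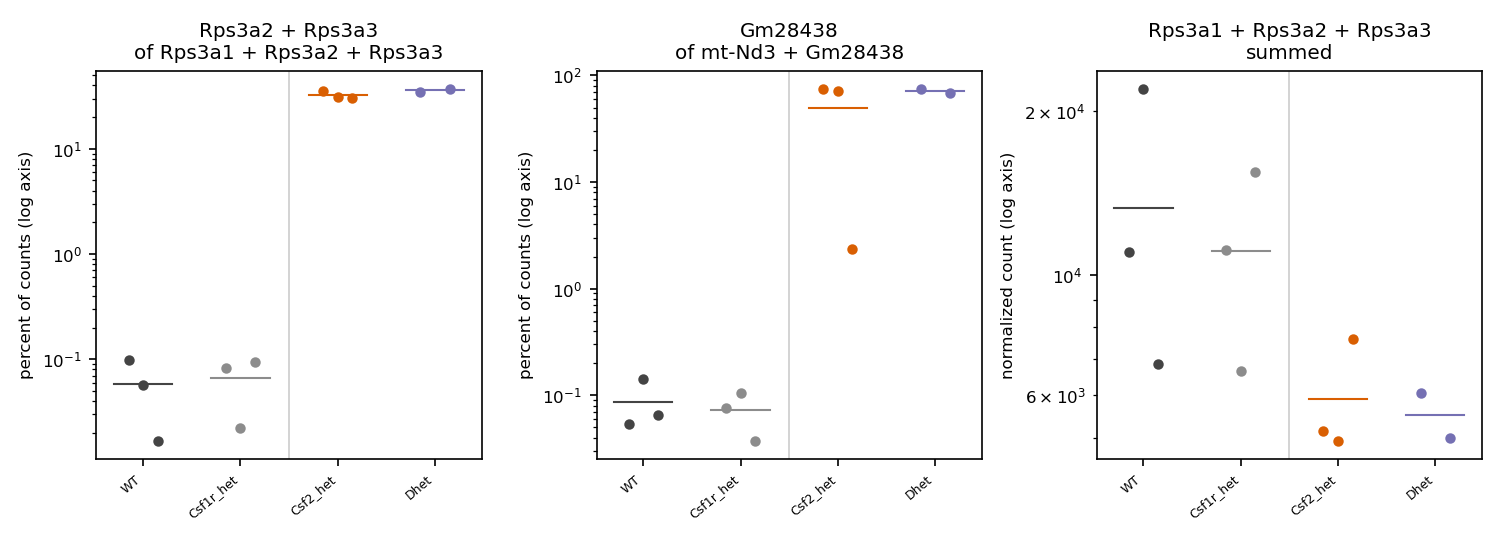
Left and middle: percent of the counts of a gene family that fell on the pseudogenes, by library and on log axes; right: summed normalized count of Rps3a1, Rps3a2 and Rps3a3, also on a log axis. Points are libraries and bars group means; the Rps3a share parts the 5 libraries with 1 Csf2 copy from the 6 others, and Csf2_het replicate 3 (2.33%) stands apart in the Gm28438 share.

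The fourth gene that rose, the predicted gene Gm8797 (ENSMUSG00000103034.1, chromosome 3, 5750806 to 5751295), went from 923 to 2876 with 2 copies to 3976 to 6165 with 1 (log2 1.59, SE 0.27, limma adjusted p = 0.0302). No other gene passed upward. The named genes with the next lowest p-values, which did not pass, were Ces1d (4.86), the adhesion gene Nectin3 (4.78), the adaptor Grap (1.24), Gal3st4 (1.37), Rasgrp3 (1.003), the transcription factor Sox4 (1.53), the IL-36 receptor chain Il1rl2 (1.76) and Plxdc2 (0.86). Their limma adjusted p ran from 0.103 to 0.204. Sox4 was at 829, 917 and 688 in Csf2_het and 1120.3 and 662 in Dhet, against 136 to 508 in the 6 others, and Gal3st4, Il1rl2 and Plxdc2 likewise did not overlap.

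The GM-CSF receptor genes did not pass over both Csf1r genotypes. Csf2rb, the signalling chain, was at 5995, 5546 and 3669.6 in WT, 1203, 2595 and 1765 in Csf1r_het, 1306, 1425 and 1338 in Csf2_het and 1957 and 1701 in Dhet. WT alone was high, and the pooled difference of -1.02 (SE 0.35, limma adjusted p = 0.418) was made of -1.87 with 2 Csf1r copies and 0.05 with 1. Csf2ra, the ligand-binding chain, was at 4333, 2585 and 2056 in WT, 1195, 1094 and 1217 in Csf1r_het, 843, 1091 and 841 in Csf2_het and 962 and 1443 in Dhet. Its pooled difference was -0.90, with -1.63 and 0.01 on the 2 backgrounds. By an exact permutation of the Csf2 labels within each Csf1r genotype (200 arrangements, 2-sided, smallest possible p 0.005), p was 0.06 for Csf2rb and 0.055 for Csf2ra (0.16 for each after adjustment over the 8 genes). Csf2rb2, a close copy of Csf2rb that serves IL-3 and shares reads with it, had -0.38 (exact permutation p = 0.425).

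Il3ra, the ligand-binding chain of the IL-3 receptor, was the receptor gene that was lower on both backgrounds. It stood at 325, 209 and 62.0 in WT, 64.7, 276 and 76.9 in Csf1r_het, 44.9, 24.4 and 42.2 in Csf2_het and 27.8 and 54.0 in Dhet. All 5 libraries with 1 Csf2 copy lay below the 6 others, by a small gap of 54.0 to 62.0. The difference of -1.85 (SE 0.64) did not pass over all genes (limma adjusted p = 0.418), and the exact permutation p of 0.01 became 0.08 over the 8 genes. Csf1r, the receptor of CSF-1, had 0.16 and overlapped widely, at 30254 to 66762 and 17017 to 93319. Csf1, one of its ligands, had 0.57, the G-CSF receptor Csf3r 0.33 and Flt3, a receptor of dendritic cell precursors, -0.87 (exact permutation p = 0.185 to 0.56 for these 4). At 2 and 1 Csf1r copies Flt3 had -2.22 and 0.83, Csf3r -0.13 and 0.90, and Csf1r -0.07 and 0.45. Csf1 had 0.46 and 0.71.

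**Figure D3:**
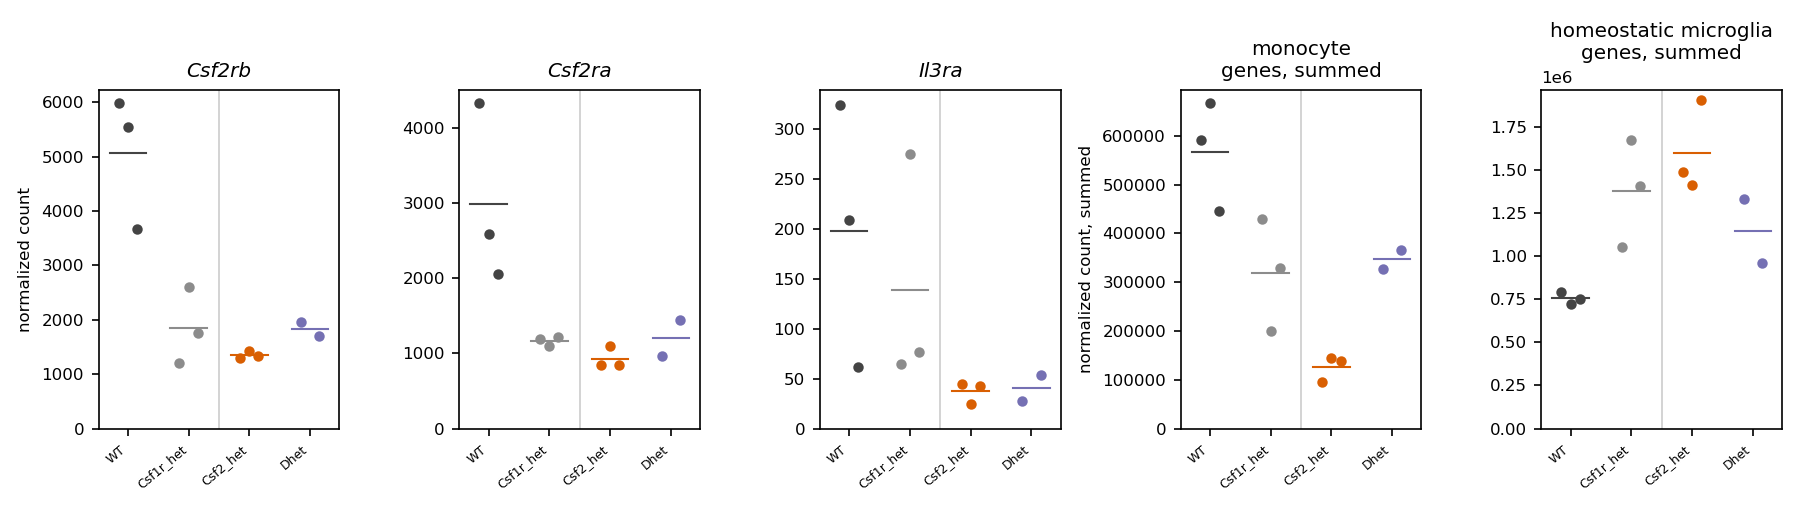
Normalized counts of the GM-CSF receptor chains Csf2rb and Csf2ra and of Il3ra, and summed normalized counts of 20 monocyte genes and 23 homeostatic microglia genes, by library (points) and group (bars are means). Il3ra is lower in all 5 libraries with 1 Csf2 copy, while Csf2rb and Csf2ra are high in WT alone.

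Of 23 genes of the GM-CSF and STAT5 response tested, none passed in either direction by limma, and 1 was higher and 7 lower at an unadjusted p under 0.05 (over all genes 3.36% were higher and 5.21% lower at that level). On the recovered reads edgeR called 0 of the 23 and DESeq2 called 1. The 2 members with the lowest p-values were Pparg, a nuclear receptor that GM-CSF induces in lung macrophages (-1.60, limma adjusted p = 0.235), and Stat5b (-1.40, limma adjusted p = 0.321). Pparg was at 119.7 to 294 with 1 copy and 164 to 1219 with 2. Feedback genes of the pathway had 0.66 (Cish), -0.33 (Socs2) and -1.11 (Socs3), none of which passed.

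Of 20 monocyte genes 19 had a negative pooled difference and 2, Treml4 and Eno3, passed. The median was -1.71, with -2.88 at 2 Csf1r copies and -0.32 at 1, against 0.03, -0.03 and 0.10 for all genes. With the values and calls known, 2 further lists were drawn up. One has 12 genes of classical monocytes (10 from the monocyte list), the other 16 of Ly6C-low monocytes (6 from it). Fcgr4, Tppp3 and Cd300e entered the latter after they had been called, so its counts are no independent evidence, and the difference between the lists was not tested. All 16 Ly6C-low genes had a negative pooled difference and 5 had passed (Fcgr4, Tppp3, Cd300e, Treml4 and Eno3). Their median was -2.00, with -2.77 at 2 Csf1r copies and -1.10 at 1, and 15 of the 16 were negative on both. At 1 Csf1r copy none of the 16 passed, with a lowest limma adjusted p of 0.263 for Fcgr4 (10 at an unadjusted p under 0.05). All 12 classical genes were negative in the pool with a median of -1.40 and none passed (8 at an unadjusted p under 0.05, 0 called by edgeR and 4 by DESeq2), and at 1 Csf1r copy the median was 0.11. Ly6c2, the defining surface marker, had -2.91 and -0.03 on the 2 backgrounds. Ccr2, the chemokine receptor of classical monocytes, had -3.53 and -0.30. Among the Ly6C-low genes Ear2, an eosinophil-type ribonuclease, had -1.93 and -2.23, and the lipid carrier Fabp4 -2.31 and -2.49 (limma adjusted p = 0.0663 and 0.0723 in the pool). At 1 Csf1r copy both went beyond their list's median of -1.10. Single genes did not all follow these medians. In the monocyte list Itgal had -3.50 and -0.44, and Vcan -7.83 and -2.98. Of the 12 classical genes 5 were negative on both backgrounds.

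In bulk libraries fewer cells of a type and less RNA per cell cannot be told apart. The summed level of the 20 monocyte genes was 95097 to 366294 with 1 copy and 199502 to 666382 with 2, and no member was at 0 in all libraries of an arm. Ly6c2 was at 2149 to 19301 and 11769 to 36798, and Ccr2 at 515 to 4306 and 3626 to 15123. With the mean of the monocyte genes as a covariate, limma called 0 genes lower (1261 genes in both directions at an unadjusted p under 0.05) and 2 higher, and the median of the Ly6C-low genes was -1.14. Treml4 and Eno3 are among both the 14 genes and the genes of the covariate. Fcgr4 differed by -1.89 with the covariate and by -1.98 without, at limma adjusted p = 0.298 and 0.00347.

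Genes of resting microglia lay on the other side. All 23 homeostatic genes tested had a positive difference (of all genes 6917 of 13223 did), with a median of 0.70, and none passed by limma (9 at an unadjusted p under 0.05, 0 called by edgeR and 2 by DESeq2). Their median was 1.09 at 2 Csf1r copies and 0.25 at 1, and 12 of the 23 were positive on both. P2ry12, the purinergic receptor that steers microglial processes, was at 23927, 12808 and 26704 in WT, 34191, 43210.2 and 36606 in Csf1r_het, 48809.7, 69352 and 60852 in Csf2_het and 50949 and 54485 in Dhet. All 5 libraries with 1 copy were higher than the 6 others (1.07, SE 0.34, limma adjusted p = 0.349). The related receptor P2ry13 (1.14, limma adjusted p = 0.242) had 1.09 and 1.19 on the 2 backgrounds and did not overlap either. Nor did the fructose transporter Slc2a5 (0.95). Of the 23 homeostatic genes 4 were higher without overlap, against 0.492% of all genes. With the monocyte mean as a covariate the median of the list was 0.19.

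Interferon-induced and antigen presentation genes were mostly lower without passing. Of 32 interferon genes 29 had a negative difference (median -1.12), 14 of them at an unadjusted p under 0.05. None passed by limma or edgeR, and 9 did by DESeq2. The median was -1.62 at 2 Csf1r copies and -0.29 at 1, and the pooled median was -0.50 with the monocyte mean as a covariate. Ifitm2, a membrane protein that blocks virus entry, was at 4239 to 6597 with 1 copy and 12045 to 111205 with 2 (-2.33, limma adjusted p = 0.0618), and Ifi204, a DNA sensor, at 384 to 562 and 926 to 3546 (-1.72, limma adjusted p = 0.0649). Each had no overlap between the arms. All 17 MHC class I pathway genes were negative, with a median of -0.85 and 11 at an unadjusted p under 0.05 (0 called by limma and edgeR, 2 by DESeq2). Their median was -1.16 at 2 Csf1r copies and -0.51 at 1, and -0.37 in the pool with that covariate. Of 14 MHC class II pathway genes 10 were negative, 8 of them on both backgrounds. Their median was only -0.20, with -0.18 at 2 Csf1r copies and -0.67 at 1. With the monocyte mean as a covariate the pooled class II median moved the other way, to -0.58. At an unadjusted p under 0.05, 1 was higher and 6 lower. The 4 without overlap, all lower (0.809% of all genes were), were H2-Aa (-1.51, limma adjusted p = 0.0723), H2-Ab1 (-1.36), H2-Eb1 (-1.26) and the invariant chain Cd74 (-1.21). H2-Aa differed by about as much on both backgrounds (-1.60 and -1.39), at 6169, 7513 and 7779 in Csf2_het and 4887 and 7458 in Dhet against 10630.2 to 30871 in the 6 others. Their inducer Ciita had -3.06 (limma adjusted p = 0.169), at 27.1, 35.4 and 36.8 in Csf2_het and 9.01 and 375 in Dhet. The value of 375, from Dhet replicate 2, lay within the range of 197 to 588 with 2 copies.

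Cytosolic ribosomal protein genes were negative in 41 of 42 and in 40 of 42 on both backgrounds, with medians of -0.62 at 2 Csf1r copies and -1.01 at 1. The pooled median of -0.82 was -0.41 without WT replicate 2, and 11 had an unadjusted p under 0.05. Other lists had medians of opposite sign on the backgrounds. Cell cycle genes had -0.60 at 2 Csf1r copies and 1.80 at 1, and neutrophil genes -1.14 and 2.72, so their pooled medians of 0.46 and 0.80 describe neither. Both pooled medians turned negative with the 21-month-old mice alone (-0.11 and -0.72). That set keeps all WT and Csf2_het libraries but only Csf1r_het replicate 3 and Dhet replicate 1 of the others. It thus gives more weight to the background with 2 Csf1r copies, and age was not separated from this weighting. Oxidative phosphorylation genes had 0.33 at 2 Csf1r copies and -0.88 at 1. None of these 4 lists held a gene that passed in the pool by limma, and 3 cell cycle, 1 neutrophil and 0 oxidative phosphorylation genes had an unadjusted p under 0.05.

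**Figure D4:**
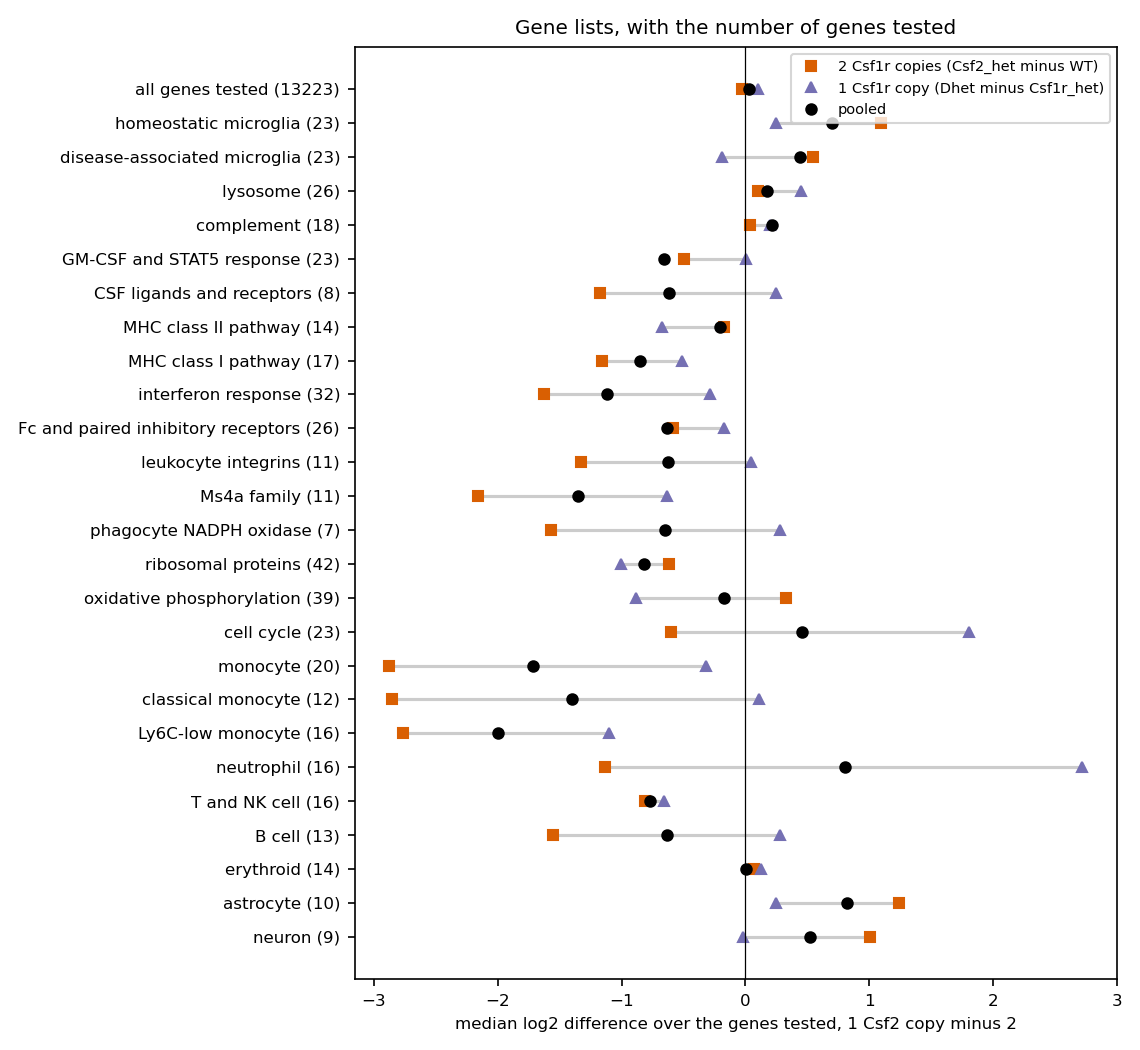
Median log2 difference (1 Csf2 copy minus 2) over the tested genes of 25 lists and over all genes, pooled (circles), at 2 Csf1r copies (squares) and at 1 (triangles), with the number of genes in brackets. The Ly6C-low monocyte, Ms4a, MHC class I and ribosomal medians are below 0 on both backgrounds and the homeostatic median above 0, while the neutrophil and cell cycle medians have opposite signs. The classical and Ly6C-low monocyte lists were drawn up with the values and calls known.

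The comparison on each background shows what the pool averages. Csf2_het against WT gave 107 genes higher (0.809%) and 375 lower (2.84%), together 482 (3.65%), and Dhet against Csf1r_het gave 1 gene (0.00756%), Rps3a2, with 1390 genes (10.5%) at an unadjusted p under 0.05. The effect of Csf2 copy number itself differed between the Csf1r genotypes in 244 genes by the interaction test (1.85%). In 159 of them (1.2%) the difference was negative at 2 Csf1r copies and higher at 1, and in 85 (0.643%) it was lower at 1. WT had the highest mean in 137 of the 159. Pirb, an inhibitory receptor of myeloid and B cells, had -3.45 and 0.75. It was at 8367, 5874 and 5605 in WT, 1529.96, 766 and 998 in Csf1r_het, 510.1, 651 and 631 in Csf2_het and 1446 and 2176 in Dhet, so that Dhet lay between WT and Csf2_het. Adgre5, the adhesion receptor CD97, had -3.73 and -0.12 and was high in WT alone. None of the 18 genes called in the pool was called for the interaction, an outcome that calling by a pooled difference favours. The 482 fell to between 172 and 228 without WT replicate 1 or any 1 of the Csf2_het replicates. The 244 fell to between 47 and 103 without WT replicate 1, Csf1r_het replicate 1 or 3, any 1 of the Csf2_het replicates or Dhet replicate 1, and became 896 without WT replicate 2. An average that weighs both backgrounds equally, from the fit of 4 groups, gave 4 genes higher (0.0303%) and 91 lower (0.688%), among them all 18, and 86 of the 95 had the same sign on both backgrounds. Calling by an average also favours equal signs.

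The 2 backgrounds share no library, so each can be looked up in the other. Fitted on WT and Csf2_het alone, limma called 259 genes (2405 at an unadjusted p under 0.05), and on Csf1r_het and Dhet alone 0 (1609 unadjusted). Of the 259, 115 had the same sign in the other fit. Of the 100 genes with the lowest p in the first fit, 93 were lower there, and 52 of these were also lower in the second. Of the 100 with the lowest p in the second, 30 had the same sign in the first. Over all genes 43.5% had the same sign, with Pearson's r of -0.12 and Spearman's rho of -0.16 across genes, which are not independent and share depth and haemoglobin differences between libraries.

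**Figure D5:**
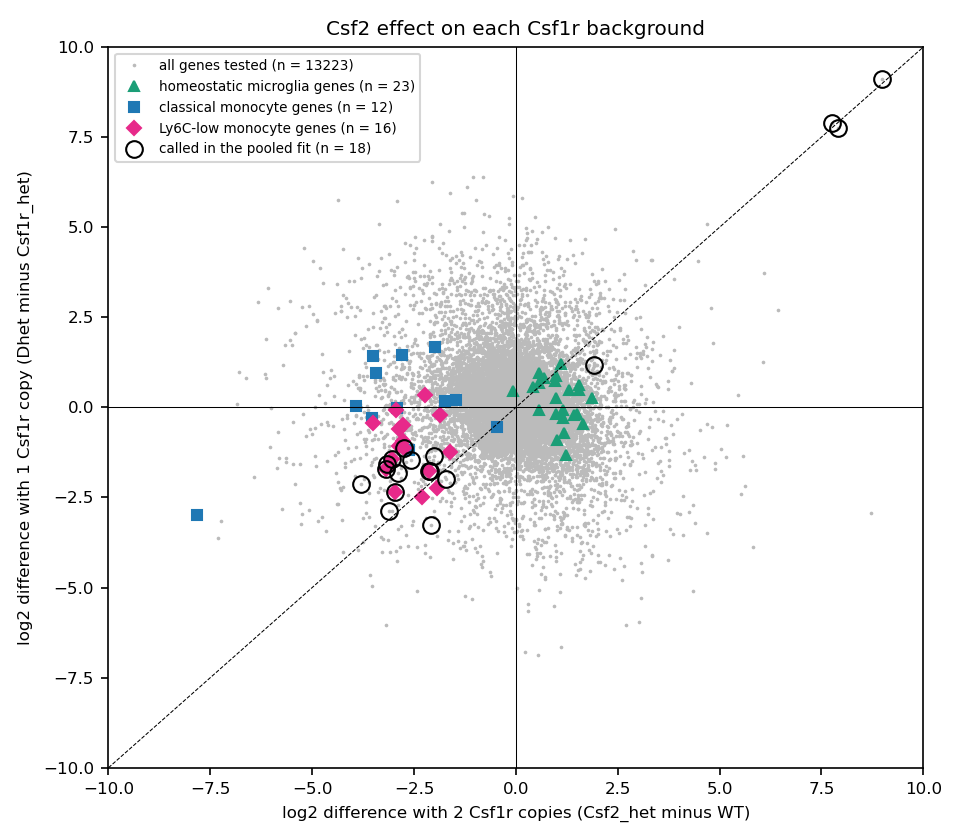
Log2 difference by Csf2 copy number at 2 Csf1r copies (x axis) and at 1 (y axis) for all 13223 genes, with the dashed line at equality; circles mark the 18 genes called in the pool. Called genes lie in the quadrants of equal sign, Ly6C-low monocyte genes mostly below 0 on both axes, and classical monocyte genes spread to both sides of 0 on the y axis. Calling by the pooled difference favours equal signs. Both monocyte lists were drawn up with the values and calls known, so their positions are no independent evidence.

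Genes near the deleted locus were examined because flanking DNA can differ around an altered allele. Csf2 lies on chromosome 11, 54247271 to 54249667, on the reverse strand of mm10. Of 34 genes tested within 2 Mb on either side, the lowest limma adjusted p was 0.478 and 3 had an unadjusted p under 0.05 (Gm2a, Irf1 and Tnip1). Over all genes tested the share at that level was 8.57%, so 3 of 34 is near it. Irf1, an interferon-induced transcription factor, had the lowest p-value, with a log2 difference of -0.85.

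The number of calls in the pool rested on single libraries. It was 6 without WT replicate 1 or Csf1r_het replicate 1, 7 without any 1 of the Csf2_het replicates, 8 without WT replicate 2 and 73 without Dhet replicate 2, against 18. Besides Fcgr4, Tppp3, Ms4a4a and the 3 pseudogenes, each of the other 12 called genes lost its call in at least 5 of the 11 such fits, though none changed sign.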

How the data were processed

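Bulk RNA sequencing libraries (11) of sorted microglia were analysed from 1 table. Its signal values are gene counts over a size factor per library, made by the authors with kallisto 0.43.1, DESeq2 (no version given in sources used here) and mm10, per the submitters' processing notes. All values (100%) were whole multiples of 1 read within 0.02 reads, which gave the reads and depths.

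Tests used log2(normalized count + 1), which understates differences of low genes, for 13223 genes (1516 with a mean under 10 dropped). limma 3.58.1 (R 4.3.3, trended prior, 8 residual and 6.09 prior degrees of freedom) fitted Csf2 copies with Csf1r genotype as covariate, and a second fit the 4 groups (7 residual degrees of freedom). Called means a Benjamini-Hochberg adjusted p under 0.05 over all genes tested. On the recovered reads edgeR 4.0.16 called 16 genes and DESeq2 1.42.0 called 234.

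The comparison, the 42 gene lists (751 genes) and the tests were chosen with earlier results of these data known, and 2 further monocyte lists after the values were seen. Genes named by rule were all CSF genes, the 10 lowest p per direction with a mean of at least 50 (2 higher and 1 lower predicted names left out), the leading members of each list, 6 interaction genes and the 4 lowest p among calls. Other genes given with values, such as Dusp16, Ext1, Gm8797, AC238811.2, Rps3a1, mt-Nd3, Adcy4, Ddx3y and Xist, were added after their values were seen, and 2 named genes are not reported here. Promoters came from RefSeq (GRCm38.p6), transcripts and positions from GENCODE vM21. In counts simulated for this comparison (13103 genes) limma called 2 of 80 genes with a log2 fold of 1, 29 of 56 with 2 and 60 of 64 with 4, and 7 of 12903 unchanged genes.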

Additional observations from a re-analysis of the deposited data

Results flagged for a closer look

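Of the 66 sets of 5 or 6 libraries screened for a library apart from the rest, 2 had one, where chance alone would give about 1 in 20. Csf2_het replicate 3 held 2.33% of the summed mt-Nd3 and Gm28438 counts on Gm28438, and the nearest of the other 4 libraries with 1 Csf2 copy held 68.3%. WT replicate 2 held 93083 normalized counts of the same sum, and the nearest of the other 5 libraries with 2 copies 33914.

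The Csf2 difference at 1 Csf1r copy minus that at 2 copies passed the interaction test in 9 named genes, with log2 values as follows. Genes of leukocyte adhesion and movement were Adgre5 (3.62, limma adjusted p = 0.00687) and Anxa2 (4.14, limma adjusted p = 0.00687). Genes with other roles were Pirb (4.20, limma adjusted p = 0.00362), Pygl (5.05, limma adjusted p = 0.00136), Nfe2 (4.08, limma adjusted p = 0.00362), Cybb (2.76, limma adjusted p = 0.00874) and Tgfbi (3.54, limma adjusted p = 0.0191). The transcription factor Klf2 (2.97, limma adjusted p = 0.0275) came from the list of immediate early and dissociation genes. That list had medians of -0.95 at 2 Csf1r copies and 0.72 at 1. The cilium gene Pifo (-3.52, limma adjusted p = 0.0432), the only negative value of the 9, completed them.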

How the results depend on the processing

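All 18 called genes kept their direction in all 29 alternatives run. Against 4 higher and 14 lower, DESeq2 on the recovered reads gave 24 and 210, and the mean of the monocyte genes as a covariate 2 and 0 (1261 at an unadjusted p under 0.05). The number lower was 91 in the equal-weight average of the 4-group fit, 60 without the 24-month-old mice, 26 with the haemoglobin share as a covariate, 7 with the 21-month-old mice only, 3 with haemoglobin genes left out and libraries rescaled, and 0 without the Csf1r covariate (1077 at an unadjusted p under 0.05). Added after the data were seen, it was 5 without Csf1r_het replicate 2 and WT replicate 2, and 5 without Csf2_het replicate 3 and Csf1r_het replicate 2. With values centred on each library's median the split was 4 higher and 20 lower. Leaving out 1 library at a time gave 3 to 5 higher and 3 to 68 lower genes (68 without Dhet replicate 2, 3 without WT replicate 1 or Csf1r_het replicate 1), 172 to 676 for Csf2_het against WT (172 without WT replicate 1), 0 to 121 for Dhet against Csf1r_het (121 without Dhet replicate 2, where the lone Dhet library is assumed to vary like the other groups) and 47 to 896 for the interaction (47 without Dhet replicate 1, 896 without WT replicate 2). Csf2_het against WT gave 482 genes, and 1139 with DESeq2. Dhet against Csf1r_het gave 1, and 2 with edgeR and 91 with DESeq2. The interaction gave 244, and 908 with DESeq2. The cause of these shifts was not tested.

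No pairing by replicate number was seen: none of 15 same-numbered pairs had a correlation of deviations over 0.1 (-0.21 to 0.06). The deviations are from group means of 2 or 3 libraries, which makes this a weak check. It cannot decide whether same-numbered libraries shared a batch. With the number as a replicate block, 9 genes were lower in the pool, 256 were called for Csf2_het against WT, 0 for Dhet against Csf1r_het (1266 at an unadjusted p under 0.05) and 14 for the interaction. The simulation gave each changed gene the same fold on both Csf1r backgrounds. In it, 2 of 80 genes with a log2 fold of 1 were called, and 29 of 56 with 2. Folds that differ between the backgrounds were not simulated. A gene that did not pass is therefore not shown to be equal.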

Other observations

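Adcy4, an adenylate cyclase that makes cyclic AMP, was at 0 in all 5 libraries with 1 Csf2 copy and at 263, 301 and 48.2 normalized counts in WT and 10.6, 11.9 and 11.6 in Csf1r_het. It did not pass (limma adjusted p = 0.0618) and was singled out after its values were seen, and it was the 1 protein-coding gene whose lowest value in one arm was at least 3 times the highest in the other, both taken plus 1. Clec4n, a lectin receptor (Dectin-2) of myeloid cells, was at 40.7, 30.2 and 1.36 in Csf2_het and 93.1 and 58.6 in Dhet, below all 6 others at 123 to 526 (log2 -3.23, limma adjusted p = 0.196). Lilra5, a leukocyte immunoglobulin-like receptor, had -1.47 at 2 Csf1r copies and -1.47 at 1 (limma adjusted p = 0.124 in the pool). The inflammatory cytokine Il1b had -2.78 and -0.81, and its pooled -1.90 did not pass either (limma adjusted p = 0.0878).

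Transcripts of other cell types were present in every library. T and NK cell genes had a negative difference in 15 of 16 (median -0.77, none called by limma and 3 at an unadjusted p under 0.05), at summed levels of 2060.3 to 3679 and 1569.8 to 7996 with 1 and 2 copies. Astrocyte genes were positive in 9 of 10 (median 0.82) and neuron genes in 8 of 9 (0.52), none of which passed (2 and 1 at an unadjusted p under 0.05). Both medians turned negative, to -0.25 and -0.19, with the monocyte mean as a covariate. B cell genes had -1.55 at 2 Csf1r copies and 0.28 at 1, and erythroid genes 0.07 and 0.13. The part of these transcripts in the results above was not tested.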
